A study of Mus musculus with 7 samples.

Results

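Simple epithelial keratins are described here in 7 Affymetrix mouse arrays of skin tumour cells. The set was chosen by gene name and holds 6 of the 18193 genes measured: Krt7, Krt8, Krt18, Krt19, Krt20 and Krt23. They were read from every probe set that carries a single gene symbol, which gave 8 of 34945 probe sets, 3 of them for Krt8. A probe set is a group of short probes that is summarised as a single level. The cells had been sorted by flow cytometry for the surface proteins Cd34 and Epcam from tumours that DMBA, a carcinogen, and TPA, a tumour promoter, had raised in mouse skin. Carcinomas, the malignant form, gave 4 arrays (numbered 1, 2 and 3, and tagged GFP), and papillomas, the benign form, gave 3 arrays (numbered 1 and 2, and tagged GFP). The labels write Nr2f2, a nuclear receptor, before both tumour types, give no strain, age or genotype, and do not explain the tag. They do not say whether arrays came from separate animals or from pools, and a p-value here covers the spread between these arrays alone, which may be technical. The series title concerns the malignant state and differentiation, and the comparison of carcinoma with papilloma asks which simple keratins differ between them.

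Keratins are the intermediate filament proteins of epithelia and assemble only as pairs of a type I and a type II chain. Krt8 (type II) and Krt18 (type I) form the filaments of single-layered epithelia such as liver and gut, with Krt7 (type II), Krt19, Krt20 and Krt23 (type I) added in particular glands, ducts and linings. Healthy stratified epidermis uses Krt5 and Krt14 below and Krt1 and Krt10 above, and holds Krt8, Krt18 and Krt20 mainly in Merkel cells, the touch cells of the skin. Krt19 is also known from the hair follicle bulge, and Krt8 and Krt18 are known to appear in squamous carcinomas.

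The start regions of Krt8, Krt18 and Krt7 are shown because the first 2 were the members with large differences between arrays, while Krt7 lies on the same chromosome, 15, and stayed dim. Krt8 and Krt18 belong to the keratin cluster of chromosome 15 of mouse assembly GRCm38.p6 in RefSeq, with only Gm36026 and Gm41404 listed between them, although Krt18 is a type I chain. Krt19, Krt20 and Krt23 lie on chromosome 11, where Krt20 and Krt23 are listed next to each other. Each sequence below is from RefSeq, runs 5′ to 3′ on the gene's strand, covers 250 bases before to 50 after the listed start, and has the motif matches in capitals.
Krt8 (GRCm38.p6, chr15:102004293-102004592, minus strand): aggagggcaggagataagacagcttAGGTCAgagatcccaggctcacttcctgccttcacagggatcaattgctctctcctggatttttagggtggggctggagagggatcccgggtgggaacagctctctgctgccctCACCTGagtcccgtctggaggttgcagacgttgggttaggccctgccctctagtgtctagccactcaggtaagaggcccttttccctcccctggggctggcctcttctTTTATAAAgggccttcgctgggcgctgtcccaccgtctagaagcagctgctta
Krt18 (GRCm38.p6, chr15:102027966-102028265, plus strand): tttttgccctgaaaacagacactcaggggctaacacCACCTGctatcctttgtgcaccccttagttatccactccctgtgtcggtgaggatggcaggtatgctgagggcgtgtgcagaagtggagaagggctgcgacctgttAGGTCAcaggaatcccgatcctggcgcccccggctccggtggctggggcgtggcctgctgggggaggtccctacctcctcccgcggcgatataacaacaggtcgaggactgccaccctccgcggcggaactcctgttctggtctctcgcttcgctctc
Krt7 (GRCm38.p6, chr15:101412153-101412452, plus strand): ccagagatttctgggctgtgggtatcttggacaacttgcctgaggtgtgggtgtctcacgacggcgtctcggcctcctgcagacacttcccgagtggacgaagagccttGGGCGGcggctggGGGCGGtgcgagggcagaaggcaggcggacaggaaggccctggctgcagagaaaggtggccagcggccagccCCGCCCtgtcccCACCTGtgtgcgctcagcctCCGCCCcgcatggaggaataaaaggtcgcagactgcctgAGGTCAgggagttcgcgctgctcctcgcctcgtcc

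Both strands were searched for 5 motifs. AGGTCA, a core motif of nuclear receptors, was in the windows of Krt8, Krt18, Krt7 and Krt20 and in 16.3% of all 32851 promoter windows. CAGGTG, an E-box, was in those of Krt8, Krt18, Krt7 and Krt23 and in 20.2% of all. TATAAA was found in Krt8, where TTTATAAA holds it on both strands with overlapping matches, and in Krt20, against 13.6% of all windows. GGGCGG, the GC box, occurred 4 times in Krt7 and in none of the other 4 windows searched, against 35.7% of all. TGANTCA, the AP-1 motif, was in none of the 5 windows, against 7.81% of all. These matches describe letters in a window and say nothing of binding.

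The deposited values are log2 levels normalized by the authors with RMA, with array medians between 5.38 and 5.51. Keratinocyte markers, the check on the sorted epithelial cells, had a mean level over 11 measured genes of 11.53 to 12.24 in the untagged arrays, 10.47 in carcinoma GFP and 10.36 in papilloma GFP. Epcam, for which the cells were sorted, is among these genes and among those of luminal and glandular epithelium below. The 2 GFP arrays stood apart. Their endothelial markers averaged 10.75 in carcinoma GFP and 10.74 in papilloma GFP over 15 genes, against 5.21 to 5.62 in the untagged arrays, and their fibroblast markers averaged 11.30 and 10.21 over 13 genes, against 5.46 to 7.03. The 3' control probe set of Gapdh exceeded the 5' one by 3.193 and 3.189 in the GFP arrays and by -0.043 to 0.062 in the others, a difference that grows as labelled RNA shortens. Tumour differences of the members and of the gene lists are therefore given with and without these arrays, which for the lists was decided after seeing the data. In sorted bulk cells, more cells with a keratin and more of its RNA per cell cannot be told apart.

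Krt8, the type II chain of the simple epithelial pair, was the member with the widest contrast among carcinomas. On probe set 1420647_a_at its level was 9.82 in carcinoma 1, 7.70 in carcinoma 2, 5.22 in carcinoma 3 and 7.96 in carcinoma GFP. In papilloma 1, papilloma 2 and papilloma GFP it was 6.26, 5.07 and 5.52. Of the carcinomas, 3 lay above every papilloma, while carcinoma 3 lay among the papillomas, so the groups overlapped. Carcinoma averaged 7.67 ± 1.89 (SD, n = 4) and papilloma 5.62 ± 0.60 (SD, n = 3). The difference of 2.05 log2 units (SE 0.99), which corresponds to 4.15-fold (95% interval 0.815 to 21.1), did not pass the threshold over all 34945 probe sets (limma adjusted p = 1). Over the 35 splits of the arrays, a two-sided exact permutation test gave p = 0.143, where 0.0286 is the smallest value possible. Probe set 1420647_a_at had the largest difference of the Krt8 probe sets and was not the brightest. On 1423691_x_at and on the brightest, 1435989_x_at, the same permutation test gave p = 0.2 each. The brightest differed by 3.14-fold (95% interval 0.757 to 13.0).

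The other Krt8 probe sets placed the arrays alike. They are of the _x_at kind, whose probes can bind related transcripts, and processed pseudogenes of Krt8 are known. Probe set 1423691_x_at ran from 5.39 in carcinoma 3 to 9.85 in carcinoma 1, with a difference of 1.90 (SE 0.95), and 1435989_x_at, the brightest, from 5.78 to 9.89 in the same arrays, with 1.65 (SE 0.87). On all 3, carcinoma 1 was highest, followed by carcinoma GFP, carcinoma 2 and papilloma 1. The arrays at the low end changed places, with papilloma 2 lowest on 1420647_a_at and carcinoma 3 lowest on the others.

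Krt18, the type I partner of Krt8, spanned the widest range of the set, 5.29 log2 units on its probe set 1448169_at. All 4 probe sets of Krt8 and Krt18 ranged over at least 4 log2 units among the 5 untagged arrays alone, a limit picked after the values were seen, as did 0.418% of all probe sets. Its level was 11.07 in carcinoma 1, 9.58 in carcinoma 2, 9.26 in carcinoma 3 and 7.54 in carcinoma GFP. It was 9.28 in papilloma 1, 5.79 in papilloma 2 and 6.12 in papilloma GFP. Papilloma 1 lay above carcinoma 3 and carcinoma GFP, and the other papillomas lay below every carcinoma. Carcinoma averaged 9.36 ± 1.45 (SD, n = 4) and papilloma 7.06 ± 1.93 (SD, n = 3), a difference of 2.30 (SE 1.08) or 4.93-fold (95% interval 0.831 to 29.2). This too missed the threshold (limma adjusted p = 1, exact two-sided permutation p = 0.171 over the 35 splits).

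**Figure D1:**
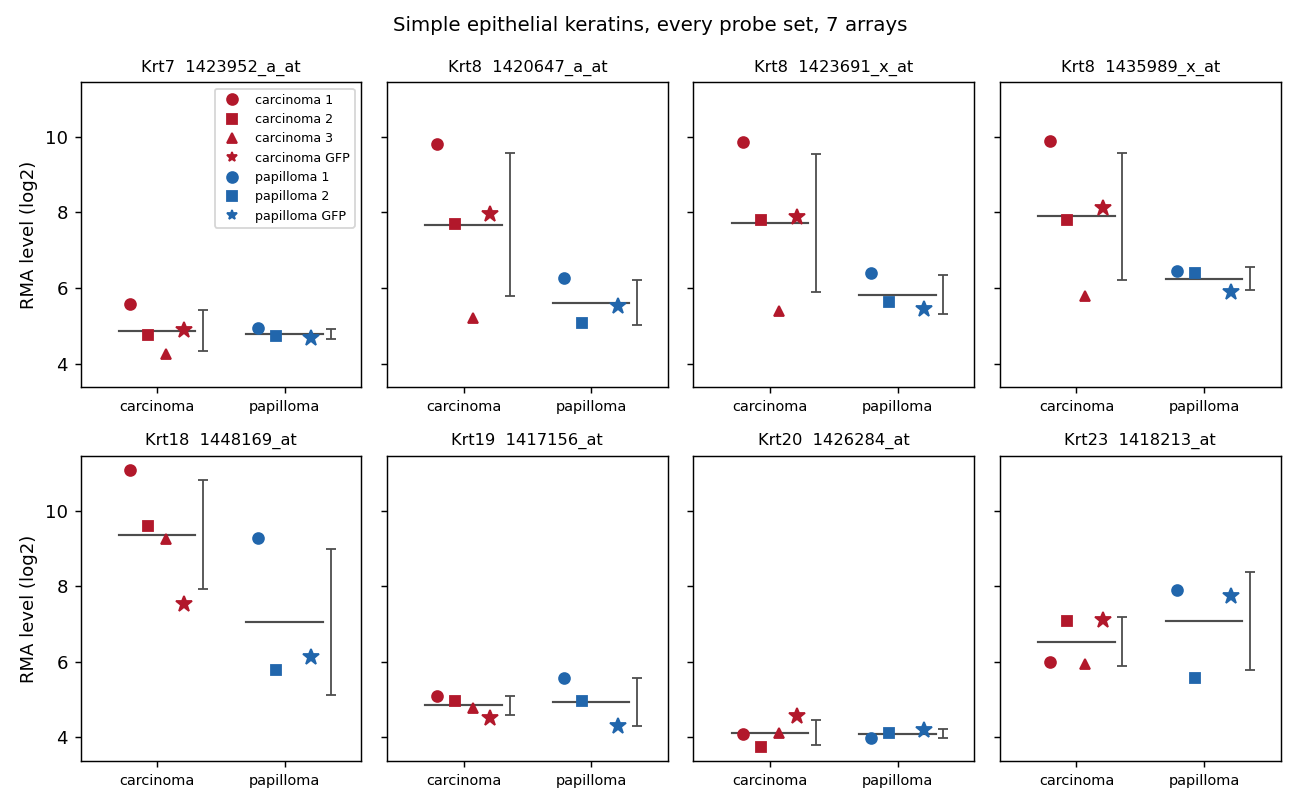
RMA level (log2) of the 8 probe sets of the 6 simple keratins, 1 panel each, with a point per array, red for carcinoma (n = 4) and blue for papilloma (n = 3), a star for the GFP arrays, a line at the group mean and a bar of ± 1 SD beside it. Krt8 and Krt18 spread over more than 4 log2 units and reach their highest level in carcinoma 1, while Krt7, Krt19 and Krt20 stay below 5.6 in every array.

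Krt8 and Krt18 did not place the arrays in the same order. Carcinoma 1 was highest for both, and papilloma 2 and papilloma GFP were low for both. Carcinoma 3 and papilloma 1, however, had nearly equal Krt18 levels of 9.26 and 9.28, near carcinoma 2, while their Krt8 levels on 1420647_a_at were 5.22 and 6.26, below carcinoma 2 at 7.70. Carcinoma GFP showed the reverse, with Krt8 second only to carcinoma 1 and Krt18 below all untagged arrays except papilloma 2.

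**Figure D2:**
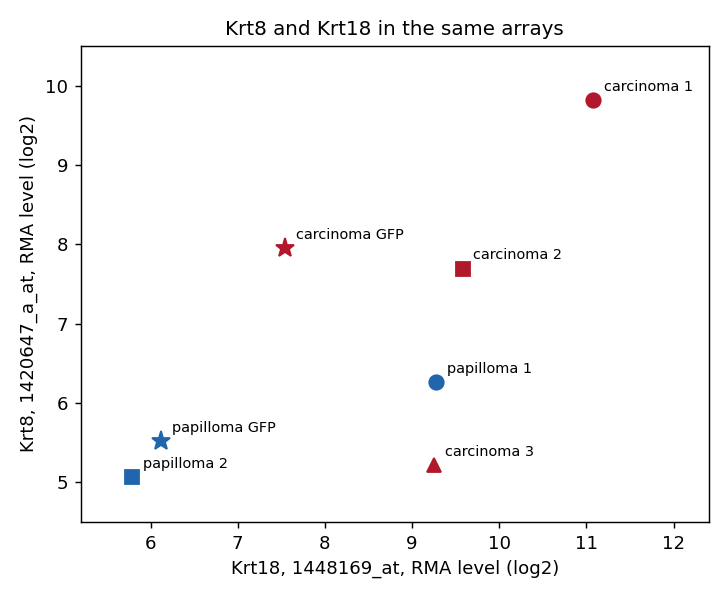
Krt8 level on 1420647_a_at against Krt18 level on 1448169_at (both RMA, log2), 1 point per array, red for carcinoma, blue for papilloma, stars for the GFP arrays. Carcinoma 1 is at the top right, papilloma 2 and papilloma GFP at the bottom left, and carcinoma 3 and papilloma 1 have Krt18 near 9.3 with Krt8 at 5.22 and 6.26.

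In the pairs of arrays that share a number or the tag, both keratins were higher in carcinoma each time. For Krt8 on 1420647_a_at the carcinoma array exceeded its papilloma partner by 3.55 (arrays numbered 1), 2.62 (numbered 2) and 2.44 (GFP). On the brightest Krt8 probe set, 1435989_x_at, these differences were 3.44, 1.40 and 2.23, smaller above all in the pair numbered 2. For Krt18 the same differences were 1.80, 3.79 and 1.42. Of all probe sets, 11.1% were higher in carcinoma in each of the 3 pairs and 10.9% lower. With a difference of at least 1 in each pair, again a limit picked after the values were seen, the share was 0.0658%, and Krt18 and all 3 probe sets of Krt8 were part of it. Fitted with the replicate number as a block, which leaves carcinoma 3 without a partner, the difference was 2.87 (SE 0.28, limma unadjusted p = 0.000218) for Krt8 on 1420647_a_at, 2.36 (SE 0.42, unadjusted p = 0.00305) on its brightest probe set and 2.34 (SE 0.51, unadjusted p = 0.00679) for Krt18. None passed after adjustment (limma adjusted p = 0.999 for each). The titles do not say that a shared number marks a pair. Carcinoma 3, alone in its block, does not enter these differences. Carcinoma 3 carried the lowest or second lowest Krt8 level of all arrays. Without it, the brightest Krt8 probe set differed by 2.36 (SE 0.57) in the fit without a block, and without carcinoma 1 by 0.99 (SE 0.64). The Krt18 difference ranged from 1.67 without papilloma 2 to 3.41 without papilloma 1. Without both GFP arrays the differences were 1.40 (SE 1.14) for the brightest Krt8 probe set, 1.91 for 1420647_a_at and 2.44 (SE 1.11) for Krt18. With the tag as a covariate the brightest Krt8 probe set differed by 1.64 (SE 0.89) and Krt18 by 2.14 (SE 0.87). In the fit without covariates keratinocyte markers had a higher carcinoma mean for 11 of 11 genes (median 0.32) and endothelial markers a lower one for 15 of 15 (median -0.54). Among the untagged arrays these medians were 0.17 and -0.14. Their part in these differences was not tested.

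Krt7, the type II keratin of ducts and glands, was dim in both tumour types. Its level was 5.58, 4.77, 4.25 and 4.90 in carcinoma 1, 2, 3 and GFP and 4.94, 4.73 and 4.68 in papilloma 1, 2 and GFP. These values fell between the 19.0 and 45.7 percentiles of the probe sets on their arrays, below the middle everywhere. Carcinoma 1 was again highest, and carcinoma 3 lowest. The difference between the tumour types was 0.09 (SE 0.31, 95% interval -0.64 to 0.82, limma adjusted p = 1). It was 0.03 without both GFP arrays and turned to -0.14 without carcinoma 1.

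Krt19, a type I keratin of ducts and of the hair follicle bulge, was also dim. It lay at 5.11, 4.97, 4.79 and 4.52 in carcinoma 1, 2, 3 and GFP and at 5.57, 4.96 and 4.29 in papilloma 1, 2 and GFP. The tumour types overlapped, with papilloma holding both the highest and the lowest array, and differed by -0.10 (SE 0.32, 95% interval -0.85 to 0.66, limma adjusted p = 1). Without both GFP arrays the difference was -0.31, and it turned to 0.22 without papilloma 1 and to 0.01 without carcinoma GFP. The levels lay between the 19.9 and 45.4 percentiles of their arrays.

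Krt20, the type I keratin of gut lining and Merkel cells, lay near the bottom of every array. Its 7 levels ran from 3.75 in carcinoma 2 to 4.57 in carcinoma GFP with a median of 4.11, at the 8.2 to 25.8 percentiles. Carcinoma averaged 4.13 ± 0.34 (SD, n = 4) and papilloma 4.10 ± 0.11 (SD, n = 3), a difference of 0.03 (SE 0.22, 95% interval -0.49 to 0.54, limma adjusted p = 1) that turned to -0.07 without both GFP arrays and to -0.06 with arrays centred on their upper quartile. At levels this far down the array, a change in the RNA need not show in the signal.

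Krt23, a type I keratin known from simple and glandular epithelia, was of middling brightness and followed neither Krt8 nor Krt18. It reached 7.89 in papilloma 1, 7.75 in papilloma GFP, 7.12 in carcinoma GFP and 7.07 in carcinoma 2. The other arrays were lower, at 5.99 in carcinoma 1, 5.94 in carcinoma 3 and 5.58 in papilloma 2. Carcinoma 1, highest for Krt8, Krt18 and Krt7, was thus among the low arrays for Krt23. Carcinoma averaged 6.53 ± 0.65 (SD, n = 4) and papilloma 7.07 ± 1.30 (SD, n = 3), a difference of -0.54 (SE 0.64, 95% interval -2.05 to 0.97, limma adjusted p = 1) that was -0.40 without both GFP arrays. Without papilloma 2 the difference was -1.29 (SE 0.43) and without papilloma 1 it was -0.13 (SE 0.70).

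Over the set, 0 of 8 probe sets passed limma at an adjusted p of 0.05 between the tumour types, as did 0% of all 34945 tested. At an unadjusted p under 0.05 the members also gave 0 of 8, against 201 probe sets or 0.575% of all. With the replicate block this count was 4 of 8, against 971 probe sets or 2.78% of all. The 4 were the 3 probe sets of Krt8, which measure the same gene, and that of Krt18. In the block fit carcinoma 3, low for Krt8, has no partner and does not enter the difference. After adjustment the count was 0 of 8 and 0% again. None of the members had groups that did not overlap, a state shared by 0.578% of all probe sets with carcinoma above and 0.83% with carcinoma below. Among the untagged arrays alone the members also gave 0 of 8, against 4.14% above and 7.91% below. Of the 6 genes on their brightest probe sets, 4 had a higher carcinoma mean, with a median difference of 0.06, beside -0.01 over all 18193 genes. Without both GFP arrays these were 3 of 6, -0.02 and -0.05. The median hides a split between Krt8 and Krt18, at 1.65 and 2.30, and the other members, at -0.54 to 0.09. Without the block, the intervals of Krt8 and Krt18 reach from below 0 to above 3 log2 units.

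**Figure D3:**
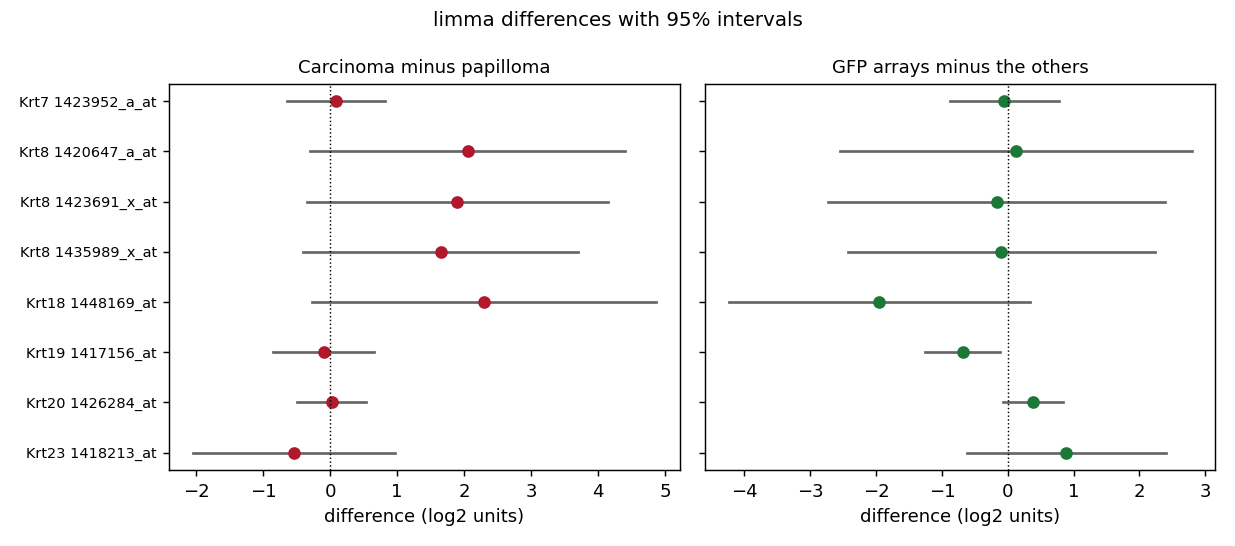
Differences in log2 units for the 8 probe sets (points) with limma's 95% intervals (lines), carcinoma minus papilloma on the left and GFP arrays minus the others, with tumour type in the fit, on the right. On the left every interval includes 0, with Krt8 and Krt18 placed at 1.65 to 2.30, and on the right only the Krt19 interval lies wholly below 0, before adjustment.

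The GFP tag was carried by 1 array of each tumour type, and no member passed the test between tagged and untagged arrays. With tumour type in the fit, Krt18 differed by -1.95 between the GFP arrays and the others (SE 0.96, limma adjusted p = 0.239), with means of 6.83 in the GFP arrays (n = 2) and 8.99 ± 1.94 (SD, n = 5) in the others. This difference passed the threshold only when papilloma 2, the lowest array for Krt18, was left out, at -2.72 (SE 0.56, limma adjusted p = 0.0282). Krt19 gave -0.69 (SE 0.24, limma adjusted p = 0.109), and both GFP arrays lay below every other array. Krt20 gave 0.38 (SE 0.19, limma adjusted p = 0.251), and both GFP arrays lay above every other. Krt23 gave 0.89 (SE 0.63), Krt7 -0.05 (SE 0.35) and Krt8, on its brightest probe set, -0.10 (SE 0.98). At an unadjusted p under 0.05 only Krt19 was called, 1 of 8, against 29.2% of all probe sets. None of the 8 member probe sets passed the adjusted threshold, whereas 16% of all probe sets did, and 17.8% had both GFP arrays above and 20.1% both below every other array. The GFP arrays were also those with endothelial and fibroblast markers raised (15 of 15 and 12 of 13 genes passing, limma adjusted p under 0.05) and with the larger 3' to 5' difference of the Gapdh control, and the part of these in the Krt18, Krt19 and Krt20 values was not tested.

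Whether the tumour difference changed with the tag was tested with an interaction term. For the brightest Krt8 probe set the difference in the GFP pair exceeded that in the untagged arrays by 0.83 (SE 2.10), and for Krt18 it was smaller by a difference of -1.01 (SE 2.05). Neither passed (limma adjusted p = 1 for both), and with 1 GFP array per tumour type the errors exceeded the differences. No member passed this test, and 0% of all probe sets did. At an unadjusted p under 0.05 it called 0 of 8 member probe sets and 2.71% of all.

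The proteins around keratin filaments were summarised from lists. Of 14 genes for filament linkers and keratin-binding proteins, 13 had a higher carcinoma mean (median 0.35), as did 8534 of all 18193 genes. Without the GFP arrays 11 did (median 0.33). Papilloma 2 was the lowest array for this list, at 8.52 on average against 8.98 to 9.49 in the others. Without it, Plec, Evpl, Eppk1, Tchp and Fbf1 turned negative, at -0.25 to -0.09, and the other signs stayed. With all arrays 0 passed the threshold. The largest differences were those of Dst, a linker of keratin to hemidesmosomes, at 0.93, and Vim, the mesenchymal filament, at -0.82. Pkp2, a desmosomal plaque protein of simple epithelia, at 0.69, and Pof1b, at 0.66, followed. Without the GFP arrays Dst, Vim and Pof1b differed by 1.046, -0.599 and 0.828. Vim was 13.236 in carcinoma GFP and 13.284 in papilloma GFP. It was 9.98, 9.344 and 5.801 in carcinoma 1, 2 and 3 and 8.492 and 9.455 in papilloma 1 and 2. Only carcinoma 3 lay below every papilloma. Pkp2 was highest in carcinoma GFP at 7.22 and carcinoma 1 at 6.41, and lay between 4.40 and 5.93 in the others, so that its difference was -0.03 without the GFP arrays. Among 12 measured genes of keratin turnover and signalling, 8 had a higher carcinoma mean (median 0.15, and 7 with a median of 0.03 without the GFP arrays, 0 passing). Prkce, a protein kinase C, differed by -0.45, and by -0.24 without the GFP arrays, in which it was higher (1.71, limma adjusted p = 0.00131). Mapk8, a stress kinase, differed by 0.33, and by -0.16 without papilloma 2. Mapk9, Mapk14 and Fbxw7 also turned negative without papilloma 2, and the other signs in this list stayed.

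Factors that regulate simple and glandular epithelium had 17 of 21 genes with a higher carcinoma mean (median 0.18, and 13 with a median of 0.12 without the GFP arrays, 0 passing). Foxa1, a pioneer factor of glandular epithelia, stood at 7.37 in carcinoma 1, the array highest for Krt8 and Krt18, and between 4.21 and 5.11 in the others. Gata3, a factor of luminal and hair follicle cells, was lowest in carcinoma 1, at 4.87, against 6.18 to 8.76, and had the largest difference of the list, -1.03, which was -1.999 without the GFP arrays and -0.59 without papilloma 2. Grhl3 and Ehf, epithelial transcription factors, differed by 1.01 and 0.91, and by 1.35 and 0.52 without the GFP arrays. Without papilloma 2 the Grhl3 difference was 0.45. In the GFP comparison 8 of the 21 passed as lower (limma adjusted p under 0.05) and 0 as higher, beside 7.11% and 11% of all genes.

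Genes of luminal and glandular epithelium had 12 of 18 with a higher carcinoma mean (median 0.14, and 10 with a median of 0.09 without the GFP arrays, 0 passing). Ltf, the secreted iron binder lactoferrin, was at 8.57 in carcinoma 1 and between 4.93 and 5.44 elsewhere. Lcn2, another secreted iron carrier, differed the other way, at -2.01. It was 5.15, 6.26, 4.29 and 7.24 in carcinoma 1, 2, 3 and GFP and 6.79, 9.76 and 6.69 in papilloma 1, 2 and GFP. The groups overlapped, and the difference was -1.01 without papilloma 2, the highest array, and -3.05 without the GFP arrays. Slpi differed by -0.91, and by -1.11 without the GFP arrays. The claudins Cldn8 and Cldn4 differed by 0.94 and 0.92, and by 0.83 and 1.06 without the GFP arrays. Without papilloma 2 the Cldn8 and Cldn4 differences were 0.58 and 0.64. Among the untagged arrays Cldn4 was 7.97 in papilloma 2 and 10.15 to 10.47 in the others, with papilloma 1 highest. Both claudins were lower in the GFP arrays, Cldn4 past the threshold (-2.75, limma adjusted p = 0.0338) and Cldn8 not (-2.84, limma adjusted p = 0.0662).

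The keratins of stratified epithelia were counted in the same way. Of 4 basal keratins 3 had a higher carcinoma mean, with a median of 0.06, and of 12 suprabasal and wound keratins 5 did, with a median of -0.16, and 0 passed in either list. Without the GFP arrays these were 1 of 4 (median -0.12) and 6 of 12 (median -0.04). Krt13, a keratin of internal stratified linings, differed by 2.24, by 3.36 without the GFP arrays and by 0.97 without papilloma 2. It was 10.79, 9.59 and 8.54 in carcinoma 1, 2 and 3 and 5.83 in carcinoma GFP, and 8.65, 3.90 and 6.79 in papilloma 1, 2 and GFP. As for Krt18, carcinoma 1 was highest and papilloma 2 lowest. Krt1, of the differentiating layers, differed by -2.53 (-3.09 without the GFP arrays) and was lowest, at 5.08, in carcinoma 1. Krt10 differed by -1.385 (-1.72 without the GFP arrays).

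Markers of other skin cells that use simple keratins were examined next. Of 14 Merkel cell genes, 3 of them members of the set, 8 had a higher carcinoma mean (median 0.02, and 6 with a median of -0.03 without the GFP arrays, 0 passing). Atoh1 and Pou4f3, transcription factors that define Merkel cells, lay at 4.21 to 5.07 and 3.93 to 4.23, and Snap25, Chgb, Insm1, Rab3c, Syp and Chga lay between 3.23 and 5.70. Cplx2 lay higher, at 7.33 to 8.60, and Piezo2, the touch channel, at 6.36 and 6.98 in the GFP arrays and 5.40 to 5.69 in the others (limma adjusted p = 0.0127 in the GFP comparison). Isl1 varied more, at 7.86 in carcinoma 1, 8.49 in papilloma 1, 7.60 in carcinoma 3 and 6.79 in carcinoma 2, and 4.17 to 5.70 in the remaining arrays. Of 8 measured genes of sweat and apocrine glands 6 had a higher carcinoma mean (median 0.08), of 9 sebaceous gland genes 4 did (median -0.24) and of 10 hair follicle bulge genes 2 did (median -0.10), with 0 passing in each. Without the GFP arrays these were 4 of 8 (median 0.02), 4 of 9 (median -0.45) and 2 of 10 (median -0.39). These lists also hold Krt7, Krt18 or Krt19, and that of the bulge holds Cd34, for which the cells were sorted. Immune markers had 11 of 14 with a higher mean (median 0.05) and melanocyte markers 0 of 8 (median -0.23), again with 0 passing, and without the GFP arrays 7 of 14 (median 0.01) and 0 of 8 (median -0.33).

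Genes with the most similar pattern were sought for the 3 members brighter than the median probe set, Krt8, Krt18 and Krt23, on their brightest probe sets. The measure was the root mean square difference between levels centred over the 7 arrays, among 7446 genes brighter than that median with a range of at least 1. Closest to Krt8 were Pcolce2, an enhancer of procollagen processing, at 0.66, Plod2, a collagen lysyl hydroxylase, at 0.67, and Wnt9a, a Wnt ligand, at 0.68. Closest to Krt18 were Prkg2, a cyclic GMP-dependent kinase, at 0.57, Adgrg2, an adhesion receptor, at 0.64, and Dusp4, a phosphatase of MAP kinases, at 0.69. Closest to Krt23 were Bdkrb2, a bradykinin receptor, at 0.25, and the glycolytic enzymes Pfkl and Hk1, both at 0.27. Krt18 stood at rank 4190 in the order of likeness to Krt8, at 1.49, and Krt8 at rank 1275 in that of Krt18. The measure counts the size of changes as well as their direction. The dim members Krt7, Krt19 and Krt20, with narrow ranges, stood closer to Krt8, at ranks 159, 2300 and 2626. The ranks therefore do not show that Krt8 and Krt18 differ in direction. These are descriptions over 7 arrays, which include the GFP arrays that stand apart.

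**Figure D4:**
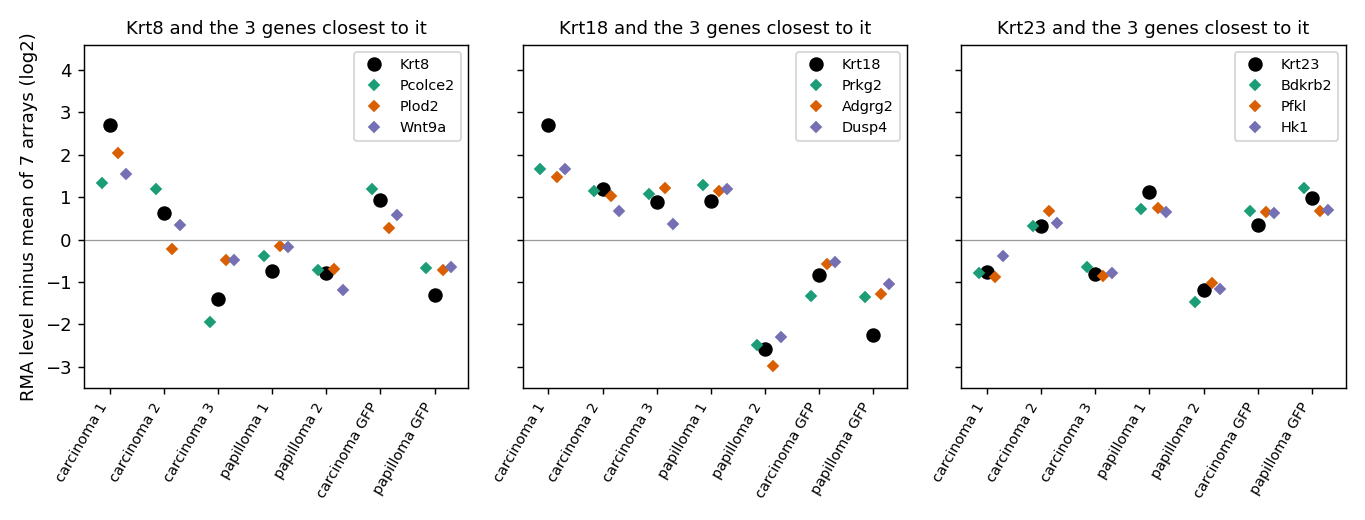
Level minus the mean of the 7 arrays (log2) for Krt8, Krt18 and Krt23 (black circles) and the 3 genes with the smallest root mean square difference to each (coloured diamonds), 1 position per array. Krt8 and its neighbours are highest in carcinoma 1, Krt18 and its neighbours are low in papilloma 2 and the GFP arrays, and Krt23 and its neighbours are low in carcinoma 1, carcinoma 3 and papilloma 2.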

How the data were processed

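RNA of sorted cells was amplified, labelled with biotin and hybridised to Affymetrix 430 strip arrays, and the authors normalized the values with RMA, per the labels' protocols. RMA and affy are listed in the submitters' processing notes without a version. The chip definition and the set of arrays processed jointly are not given in the sources. The deposited values are log2 levels from 2.72 to 14.51, a scale read from the values. Of 45101 probe sets, 64 controls, 932 with several symbols and 9160 not listed in the platform annotation of 2016 were left out. For 34741 of the 34945 kept, the gene identifier was in the RefSeq table, which gave current names. For promoters, 5 of the 6 members matched, and Krt19 did not.

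Groups came from the titles. The tumour types were compared by limma 3.58.1 (R 4.3.3, lmFit and eBayes) without covariates, and GFP arrays with the others with tumour type in the fit, each over all 34945 probe sets with Benjamini-Hochberg adjustment and a threshold of 0.05. Where a gene stands for itself, the probe set that is brightest on average was used, although Krt8 was first described on 1420647_a_at. The procedure was tested on simulated data. The exact permutation test compared the size of the difference over all 35 splits. Figures used matplotlib 3.10.9 in Python 3.11.15.

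All members were named, and from the lists up to 4 genes with the largest difference between tumour types. Foxa1, Ltf, Isl1 and the other Merkel cell genes, Krt13 and Krt1 and the Pkp2 and Vim levels were picked out after their values were seen. Members and lists were chosen with earlier results of these data known. Alternatives were the tag as covariate, the replicate block, single arrays left out, other probe set rules, a filter on dim probe sets, other scalings and other variance settings. Deviations of same-numbered arrays from their group means correlated at 0.413 (numbered 1), 0.173 (numbered 2) and 0.82 (GFP), across probe sets, which are not independent. The numbers were treated as pairs in the alternative fit, but these correlations give no ground for it among the untagged arrays. Every untagged carcinoma correlated positively with every untagged papilloma (0.13 to 0.697). Papilloma 1 correlated more with carcinoma 2 (0.697) than with carcinoma 1. Papilloma 2 correlated more with carcinoma 3 (0.478) and carcinoma 1 (0.203) than with carcinoma 2. Precision is limited by there being 7 arrays.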

Additional observations from a re-analysis of the deposited data

How the results depend on the processing

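Between the tumour types 0 probe sets passed in all alternatives run, with 106 to 1116 at an unadjusted p under 0.05 when single arrays were left out, 201 with all arrays and 971 with the replicate block. At that unadjusted limit the block called Krt8 and Krt18, and after adjustment it changed no call of a member. Of 180 member values under alternatives, 167 kept their direction and side of the threshold, 12 turned in sign and 1, Krt18 in the GFP comparison, newly passed. The tumour difference of Krt8, on its brightest probe set, stayed between 0.99 and 2.36 and that of Krt18 between 1.67 and 3.41 over single arrays left out. Those that turned were dim or near 0. The Krt20 tumour difference was -0.066 without both GFP arrays, -0.080 with array weights and -0.057 after centring on the upper quartile, and -0.12 to 0.16 with single arrays left out. With single arrays left out the tumour difference ranged from -0.14 to 0.30 for Krt7 and from -0.42 to 0.22 for Krt19, and the GFP difference from -0.21 to 0.12 for Krt7 and from -0.63 to 0.40 for Krt8. The count of probe sets past the threshold between GFP arrays and the others was 5591 with all arrays, 1300 without carcinoma GFP, 2203 without papilloma GFP and up to 6092 without another array. It was 3601 with the brightest probe set per gene and 3231 with the mean of a gene's probe sets, where 18193 genes were tested. Dim signal limits what Krt7, Krt19 and Krt20 can show.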

Other observations

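The pattern in which carcinoma exceeded papilloma by at least 1 log2 unit in each of the 3 pairs of arrays that share a number or the tag was picked out after the values of Krt8 and Krt18 had been seen and carries no test. It was met by 23 probe sets from 20 genes, and 4 of the 23 belonged to Krt8 and Krt18. Others among the 20 genes were Sox2, a stem cell transcription factor, Slit2, a guidance ligand, and Wnt9a and Pcolce2, which were also among the genes closest to Krt8. Both choices rest on Krt8 levels in the same arrays, so this overlap is not a separate observation. For scale, the median range of a probe set over the 5 untagged arrays was 0.73 log2 units, while that of Krt18 in the same arrays was 5.29.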
